A study of Mus musculus with 3 samples.

Results

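Medium conditioned by MSCs was compared with regular medium in 4T1 cells, a mouse mammary carcinoma cell line, with 1 array for each medium. The pair was chosen by the labels, as 2 of the 3 arrays in the series, and the remaining array held 4T1 cells grown in contact with MSCs. The labels write MSC without spelling it out; in this field it stands for mesenchymal stem (or stromal) cells, whose source here was not stated. The growth medium of all 3 was RPMI-1640 with 10% FBS per the labels, which do not say what base the conditioned medium had. One group was grown for 1 week in MSC-conditioned medium, and another received regular medium for a time that the labels do not state. The co-culture group spent 1 week in contact with MSCs and was then isolated from the mixture by a method the labels do not state. RNA was measured on Affymetrix mouse expression arrays, on which a probe set is a group of short oligonucleotides against 1 transcript and its MAS5 signal is their combined brightness. Each condition was 1 array of 1 cell line, so there was no replicate error and no test was run, and every difference below compares single arrays.

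Conditioned medium carries the soluble products of the cells that conditioned it, such as chemokines, interleukins and growth factors, and lacks the cells themselves. Mesenchymal stromal cells are known for secreting factors that act on receptors of neighbouring epithelial cells, and these signal through pathways such as JAK-STAT, SMAD, ERK and NF-kB. Conditioned medium also differs from fresh medium in nutrients and waste products, to which cells respond through stress and metabolic genes.

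Signals on the arrays were close to each other for nearly all genes. A floor of 42.4, the pooled 40th percentile of all signals, was applied, and a gene was called measured when it reached 149.3, the pooled 60th percentile, in regular or conditioned medium. Of 9152 measured genes, 86.5% differed by less than 1.2-fold and 97.8% by less than 1.5-fold. The median log2 difference, conditioned minus regular medium, was 0.01, with quartiles of -0.08 and 0.10. Only 10 genes were at least 2-fold higher (0.109% of those measured) and 28 were at least 2-fold lower (0.306%). Co-culture against the same regular-medium array had 805 genes at least 2-fold apart (8.57% of 9393), and 40.8% of its measured genes lay within 1.2-fold.

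**Figure D1:**
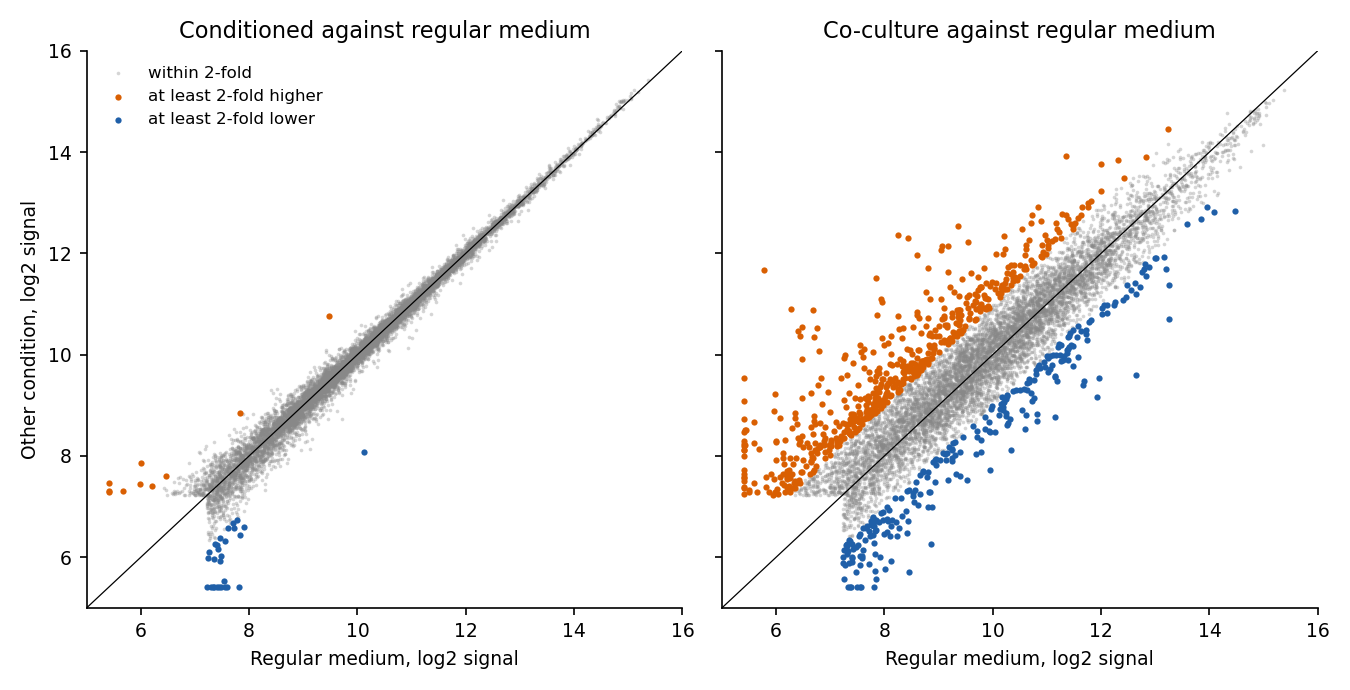
Each point is a measured gene, placed by its log2 MAS5 signal in regular medium (horizontal) and in conditioned medium (left panel) or co-culture (right panel), with the diagonal marking equal signals and signals below the floor of 42.4 set to it. The conditioned-medium points hug the diagonal with 38 genes at least 2-fold apart, against 805 in co-culture.

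The spread of the differences depended on the signal. The measured genes were put into 4 groups of equal size by mean signal. In the dimmest group, with mean signals of 91.2 to 412, the central 95% of log2 differences ran from -0.77 to 0.61 and 36 genes were at least 2-fold apart. In the brightest group, with mean signals above 2108, that range was -0.17 to 0.19 and no gene was 1.5-fold apart. The SD of the log2 differences over genes was 0.36 in the dimmest and 0.09 in the brightest group, and for co-culture 0.73 and 0.53. Co-culture had 116 genes at least 2-fold apart in its brightest group.

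**Figure D2:**
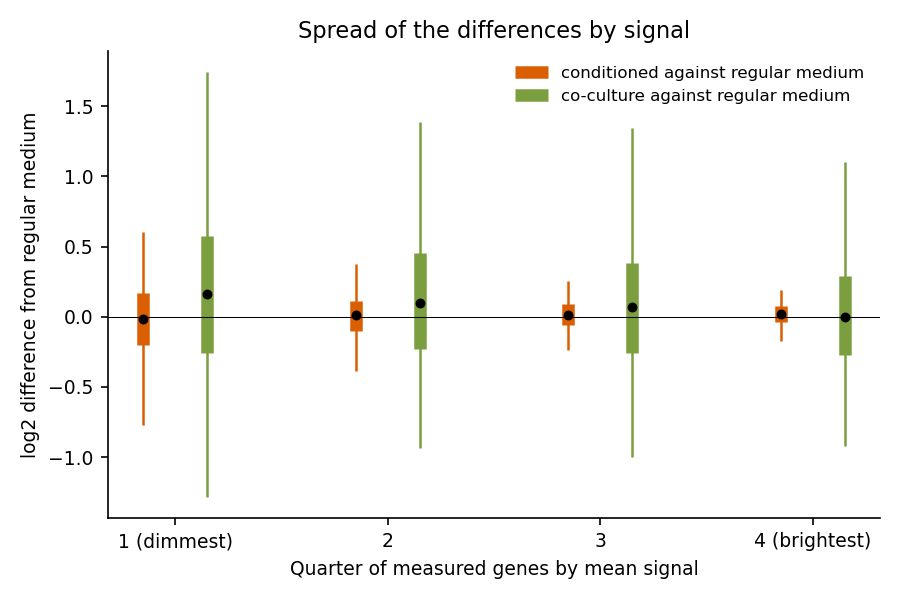
Log2 differences from regular medium (vertical) are shown for 4 equal groups of the measured genes ordered by mean signal (horizontal), with black points at medians, thick bars between the quartiles and thin lines over the central 95%. For conditioned medium the central 95% narrows from -0.77 to 0.61 in the dimmest group to -0.17 to 0.19 in the brightest.

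Probe sets with the strongest signals gave almost the same value in both media. Lgals1, which encodes galectin-1, gave signals of 42425 with regular medium, 43954 with conditioned medium and 38152 after co-culture. The translation factor gene Eef1a1 had 33887, 36595 and 30281 in the same order, and the cytoskeletal actin gene Actg1 had 33979, 34159 and 27242. For the 10 genes with the highest mean signal, which also include Rps29, Rps10, Rpl38, Rpsa, Rpl4, the chaperone gene Hspa8 and the nucleolar gene Npm1, the log2 differences between the media ran from -0.01 to 0.11. Further bright probe sets of Rps10 ranged from 0.03 to 0.52. Hspa8 shows how the third array stood apart, with 32576 and 33418 in the media and 17925 in co-culture.

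The cells carried the markers of mammary carcinoma epithelium in both media. Of 14 identity markers, 13 were measured, all within 1.2-fold on the probe set that stood for the gene, with a median log2 difference of 0.01. Krt8 and Krt18 encode the paired keratins of simple epithelium. Krt8 had signals of 15049 in regular and 15956 in conditioned medium, and Krt18 had 18723 and 19115. E-cadherin, the adhesion protein of epithelial junctions, is encoded by Cdh1, which had 7352 and 8100.1, and the epithelial adhesion gene Epcam had 5196 and 5009. A second, dimmer probe set of Epcam, with a suffix that marks possible cross-hybridisation, gave 429.6 with regular medium, 170.7 with conditioned medium and 471.1 after co-culture, a log2 difference of -1.33 between the media. The probe sets of Epcam therefore disagreed. The marker Lcn2, a secreted siderophore-binding protein, was below the floor in both, at 17.6 and 20.2.

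Markers of other cell types were mostly dim on both arrays. Among 20 MSC and fibroblast markers found, 8 were at or below the floor in regular medium and 9 in conditioned medium, and the summed signal of the list was 20030.4 and 20360.5. Collagen genes Col1a1 and Col3a1, which stromal cells make in quantity, had 13.0 and 51.6 in regular medium and 4.4 and 31.8 in conditioned medium. All but the 51.6 were below the floor, so the size of these differences cannot be read. Other collagen genes were brighter, with Col1a2 at 101.8 and 100.1, Col6a1 at 83.7 and 57.1 and Col6a2 at 191.1 and 147.5. The remaining probe sets of Col1a2 and Col6a2 were below the floor in both media. The Col6a2 probe set used carries a suffix that marks possible cross-hybridisation. Pdgfra, a growth factor receptor of stromal cells, had 101, 159 and 188 in regular medium, conditioned medium and co-culture. The log2 difference between the media was 0.65. Other probe sets of Pdgfra went the other way, from 86.8 to 43.1 and from 57.7 to 35.5, so its probe sets disagreed. Matrix protein genes Postn and Bgn had 766, 949.5 and 1803, and 12.3, 57.8 and 182, in the same order. The 12.3 of Bgn was below the floor, so its log2 difference of 0.45 between the media is a lower bound. Both other probe sets of Bgn were below the floor in each medium. S100a4, Vcam1 and Nt5e were bright in regular medium and within 1.2-fold in conditioned medium on the probe set used, while the other bright probe sets of Vcam1 had log2 differences of -0.41 and -0.04. Of 11 macrophage and leukocyte markers, 5 in regular and 8 in conditioned medium were at or below the floor, with summed signals of 899.4 and 798.4, and Cd68, a lysosomal protein of macrophages, had 201 and 282. It was the only higher one of the 3 measured markers of that list. Cd14 had 288.6 and 234.4 and Csf1r had 186.9 and 181.4 on the probe set used. The leukocyte marker Ptprc had 1.6 and 0.5 in the media, and the endothelial marker Pecam1 had 9.6 and 2.7.

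Among the 8 genes at least 2-fold higher in conditioned medium with both signals above the floor, Fitm1 had the largest ratio. It encodes an endoplasmic reticulum protein of lipid droplet formation, and its signals were 42.7 with regular medium, 177 with conditioned medium and 106 after co-culture, a 4.15-fold difference between the media. The aldo-keto reductase gene Akr1e1 had 63.8, 232 and 243 in that order, 3.64-fold higher, while its other probe set had 93.1 and 48.3 in the media, below 149.3 in both. Slc34a2, a sodium-phosphate cotransporter, was 3.13-fold higher with 50.7, 159 and 124. In these 3 genes the regular-medium signal was the lowest of the arrays, between 42.7 and 63.8. They were picked as higher in conditioned than in regular medium, so that order follows from the choice. The comparison with co-culture shares the regular-medium array.

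Acta2 and Pklr were higher from a regular-medium signal at or below the floor, so their ratios are lower bounds. Acta2 encodes smooth muscle actin, a marker of contractile and myofibroblast-like cells, and had 42.4, 157 and 278, at least 3.70-fold higher. The name of that probe set carries a suffix for shared or cross-hybridising sequence. Both other probe sets of Acta2 were below the floor in each medium. Of 10 smooth muscle and pericyte markers 6 were at or below the floor in each medium and in co-culture, and their summed signals were 642.9, 532.6 and 686.4, and the part of such cells in the Acta2 and Cspg4 values was not tested. The smooth muscle genes Tagln, Cnn1 and Myh11 were below the floor in both media, where no difference can be read, with Tagln at 5.7 and 30.7, Cnn1 at 8.2 and 4.7 and Myh11 at 15.8 and 6.4. Pklr, the pyruvate kinase of liver and red cells, had 36.1, 158 and 38.0, at least 3.73-fold higher. Its other probe sets were dim, and the brighter of them gave 59.2 and 60.6.

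The remaining higher genes were Pou5f2, Tcl1b3, Tmem102, Olfm1 and Rpl39. Tcl1b3, of the TCL1 family of AKT co-activators, was the only higher gene with a signal above 1000, at 709.6, 1736 and 1069, 2.45-fold. The name of its probe set marks possible cross-hybridisation, and the family holds closely similar copies, so which copy gave the signal is uncertain. Rpl39, a protein of the large ribosomal subunit, had 228, 460.0 and 212, 2.02-fold higher, and near-identical processed copies of ribosomal protein genes make its source uncertain too. Pou5f2, a POU-domain transcription factor, was 2.75-fold higher at 63.5, 175 and 308. Tmem102 and Olfm1 were 2.29-fold and 2.19-fold higher, with conditioned-medium signals of 169 and 193, and the other 2 probe sets of Olfm1 were below 149.3 in both media.

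Of the 28 genes that were at least 2-fold lower, 10 had a conditioned-medium signal at or below the floor. The largest of these bounds belonged to Krtap12-1, a hair keratin-associated protein gene, at 225 with regular medium, 29.3 with conditioned medium and 38.4 after co-culture, at least 5.30-fold lower. Hic1, a transcriptional repressor, had 192, 17.6 and 64.8, at least 4.53-fold lower. Cspg4, the NG2 proteoglycan of pericytes and progenitors, had 189, 27.8 and 36.0, at least 4.46-fold lower, and its other probe set gave 7.0 and 2.2. Krtap12-1, Hic1 and Cspg4 were picked as lower in conditioned than in regular medium, so that order follows from the choice. Regular medium was also above co-culture in each, but both comparisons share the regular-medium array. Nrxn3, a presynaptic adhesion gene, had 178, 21.5 and 73.6, at least 4.20-fold lower. The corepressor gene Cbfa2t3 had 174, 17.0 and 145, at least 4.09-fold lower, and its co-culture signal was nearer to that of regular medium. The name of that probe set carries a suffix for shared or cross-hybridising sequence. Other probe sets of Cbfa2t3 were below the floor in both media. Igf2, the imprinted insulin-like growth factor, had 169, 16.4 and 63.1, at least 3.99-fold lower, beside 17.3 and 3.2 on its other probe set.

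Wdr70 was the only lower gene whose regular-medium signal exceeded 1000. This WD-repeat protein gene had 1107, 270.2 and 447 in regular medium, conditioned medium and co-culture, a 4.10-fold difference between the media. Its other bright probe set gave 458, 409 and 869, a log2 difference of -0.16, so the probe sets of this gene did not move together.

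Other genes above the floor on both arrays had regular-medium signals between 150.6 and 239.7. Cphx3, a homeobox gene, had 187, 46.5 and 57.9, 4.01-fold lower, and similar copies of this gene leave its source uncertain. Cplx2, a complexin of synaptic vesicle release, had 176, 60.4 and 198, 2.92-fold lower, with its next probe set at 133 and 98.4 in the media. Ntrk2, which encodes the BDNF receptor TrkB, had 179, 64.7 and 21.6, 2.77-fold lower, and its other 7 probe sets were below the floor in both media. Slc30a3, a zinc transporter of synaptic vesicles, was 2.63-fold lower at 228 and 86.7. Serpinb6e, Trmt61b, Ccdc3, Myo15 and Rab38 followed at 2.62-fold, 2.47-fold, 2.41-fold, 2.38-fold and 2.35-fold lower, and the probe set of Serpinb6e can cross-hybridise with its gene family. The probe sets of Rab38 and Cplx2 carry a suffix for shared or cross-hybridising sequence. The other probe set of Rab38 had 42.8 and 37.7 in the media. Trmt61b, a mitochondrial tRNA methyltransferase gene, was lower in conditioned than in regular medium but highest in co-culture, at 239.7, 96.9 and 426.

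For none of these 38 genes did a second bright probe set show the 2-fold difference. Of the 38 genes, 17 had a single probe set, 20 had further probe sets of which none had a mean signal of 149.3 in the media, and Wdr70 was the exception with a bright probe set that differed little. In 35 of the 38 the brighter signal was below 250, whereas 11.3% of all measured genes had a brighter signal below 250. Raising the floor to 149.3 gave 2 genes higher and 1 lower.

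**Figure D3:**
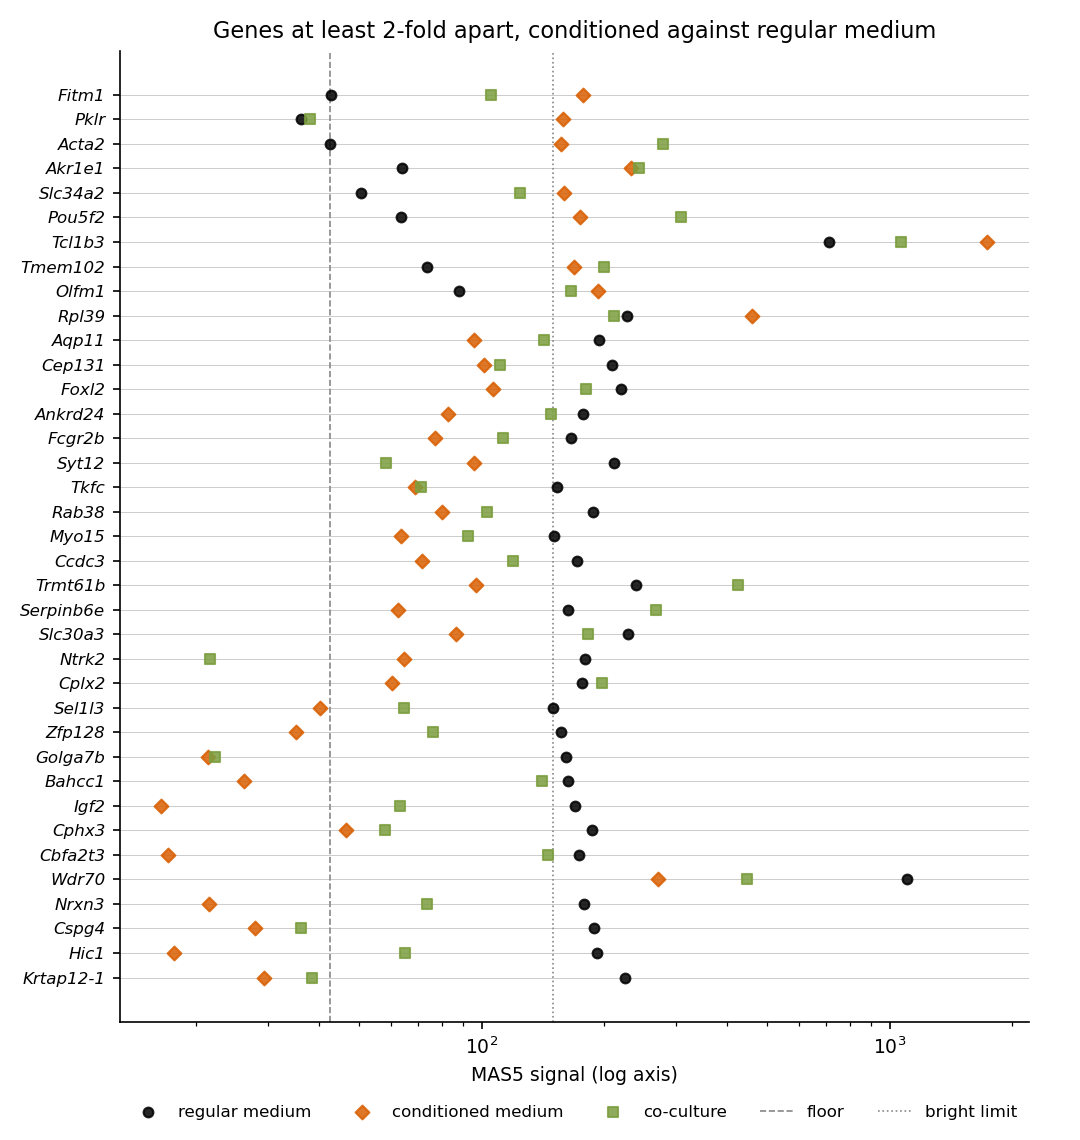
MAS5 signals (horizontal, log axis) in regular medium, conditioned medium and co-culture for 37 of the 38 genes at least 2-fold apart between the media, with 1 RIKEN clone left out and the floor and bright limit drawn as dashed and dotted lines. In 35 of the 38 genes the signals in both media lie below 250, and Tcl1b3 and Wdr70 are the only genes with a signal above 703.6.

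Small shifts were then sought in genes with several bright probe sets, which are repeat readings on the same array and can share sequence, so they are no replicates. There were 4240 genes with at least 2 probe sets whose mean signal over the media was 149.3 or more. All such probe sets differed upward in 22.1% of these genes, downward in 17.0% and in mixed directions in 60.8%. Every probe set was at least 1.2-fold higher in 9 genes (0.212%) and at least 1.2-fold lower in 25 genes (0.59%). The same rule for co-culture against regular medium gave 630 genes higher (14.8%) and 531 lower (12.5%) of 4247.

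Receptor and signalling genes were among the 9 that shifted upward. Notch1, a receptor for ligands on neighbouring cells, had 355 with regular medium, 476 with conditioned medium and 354 after co-culture on its brighter probe set, and 243, 329 and 190.4 on the other. These were 1.34-fold and 1.35-fold higher in conditioned medium. Map3k2, a kinase of the MAP kinase cascades, was 1.28-fold and 1.82-fold higher, from 337 and 162 to 432 and 295. Prkag1, a regulatory subunit of the energy sensor AMPK, was 1.25-fold and 1.68-fold higher, from 608 and 143 to 762 and 239. Bad, a BH3-only promoter of apoptosis, had 580.1, 702 and 662 on 1 probe set and 337, 566 and 675 on the other, 1.21-fold and 1.68-fold higher.

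Evi2a had the largest upward shift by its smaller probe set difference. This membrane protein gene lies within an intron of Nf1, and its probe sets had 219, 320.1 and 98.8, and 142, 216 and 49.6, in regular medium, conditioned medium and co-culture. Conditioned medium was 1.46-fold and 1.52-fold above regular medium, and co-culture was below both media. Nr2f2, the orphan nuclear receptor COUP-TFII, was 1.28-fold and 1.55-fold higher on its bright probe sets. Its dimmer probe sets had log2 differences from -0.58 to 0.18. The chromatin gene Phf21a, the complex III assembly gene Uqcc1 and Ddias, an apoptosis suppressor induced by DNA damage, completed the 9. Their smaller differences were 1.21-fold, 1.21-fold and 1.24-fold. Dimmer probe sets of Phf21a had log2 differences of -0.48 and 0.89. Fam13b, the telomere shelterin gene Tinf2 and the tRNA-modifying gene Alkbh8 lay just under the limit, at log2 differences of 0.26, 0.26 and 0.24 on the less shifted probe set.

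Among genes shifted downward, Ubox5, which encodes a U-box ubiquitin ligase, came first. Its probe sets had 367, 241 and 363, and 218, 141 and 179.9, in regular medium, conditioned medium and co-culture. It was 1.52-fold and 1.54-fold lower in conditioned medium, the only gene past 1.5-fold on every bright probe set. Ccl25, a chemokine that attracts cells bearing CCR9, was 1.49-fold and 1.51-fold lower, with 222, 149 and 110.2 on 1 probe set and 202, 134 and 117 on the other. Ccl25 was picked as lower in conditioned medium, and co-culture was also below the shared regular-medium array on both probe sets.

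Further downward shifts were seen in genes of several roles. Mknk1, a kinase that phosphorylates the translation factor eIF4E, was 1.34-fold and 1.35-fold lower, from 466 and 340.0 to 348 and 251. Vasn, a membrane protein that binds TGF-beta, had 270.2 and 216 in regular and 181 and 165 in conditioned medium. Thra, the thyroid hormone receptor alpha, was 1.29-fold and 1.35-fold lower. Tmem258, a subunit of the oligosaccharyltransferase, was 1.38-fold and 2.00-fold lower, and Txndc11, a thioredoxin-domain protein of the endoplasmic reticulum, 1.29-fold and 1.35-fold. Ccsap, a centriole and spindle protein, had a smaller difference of 1.28-fold. Tube1, or epsilon-tubulin, was 1.28-fold and 1.35-fold lower on probe sets whose names carry a suffix for shared or cross-hybridising sequence, and its dimmer probe set without one differed upward, by 0.39 on the log2 scale (126.5 and 165.9). A dim probe set of Thra also differed upward, by 0.39. Gen1, a Holliday junction resolvase, the zinc finger gene Zfp995 and Fam110c complete the first 12, at 1.28-fold, 1.32-fold and 1.27-fold lower on the less shifted probe set.

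**Figure D4:**
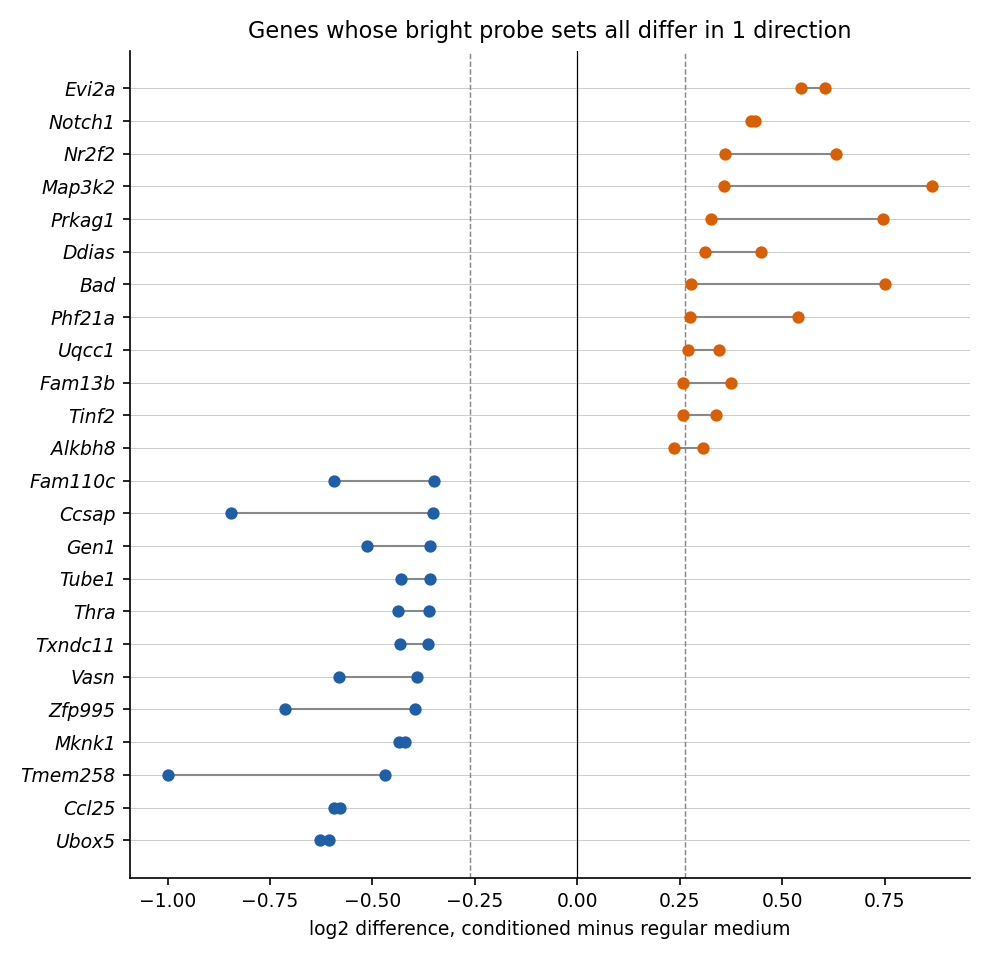
Log2 differences, conditioned minus regular medium (horizontal), of each bright probe set (points) for the 12 genes with the largest shift in each direction, joined by a line per gene, with dashed lines at 1.2-fold. Notch1, Mknk1, Ccl25 and Ubox5 have probe sets that nearly coincide, while those of Map3k2 lie at 0.36 and 0.86.

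These shifts were those of genes with modest signals. The mean signal of the dimmest bright probe set had a median of 276 in the 9 higher genes and 199 in the 25 lower genes, against 383.8 over all 4240, and none of the 34 genes had more than 2 such probe sets. With the limit on mean signal at 703.6, the pooled 80th percentile, none of 1890 genes had every probe set 1.2-fold apart in either direction, and with 3 probe sets required there were also none. As a yardstick over all 4240 genes, the brighter pair of probe sets of a gene gave differences a median of 0.13 apart on the log2 scale. The median size of the differences themselves was 0.09. For the 1060 genes whose dimmer probe set of the pair had a signal of 149.3 to 305.55, these medians were 0.24 and 0.15. The medians of 276 and 199 fall in that range. The SD per probe set was 0.26 there, as large as the 1.2-fold limit, which is also 0.26 on the log2 scale. Scatter of that size limits what the shifts of these dim genes can show.

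Among the 1890 genes with several probe sets above 703.6, 18 were at least 1.1-fold higher on each and 6 at least 1.1-fold lower. The examples given next, other than Klf6, were chosen after their values were seen. Aars, the alanyl-tRNA synthetase, had 5897, 6746 and 10666 in regular medium, conditioned medium and co-culture, and 4173, 4856 and 9859 on its other probe set, 1.14-fold and 1.16-fold higher in conditioned medium. Emp1, an epithelial membrane protein, had 11932, 13599 and 8231, and 988, 1129.7 and 693, 1.14-fold higher on both. Cnot4, a ubiquitin ligase of the CCR4-NOT complex, was 1.22-fold and 1.18-fold higher, and the splicing factor gene Bud31 1.14-fold and 1.30-fold. Atp5o, the stalk subunit of ATP synthase, had 8045, 6986 and 6283, and 2563, 2187 and 2461, 1.15-fold and 1.17-fold lower. The deubiquitinase gene Usp19 and the recombination gene Rad51ap1 were 1.13-fold and 1.13-fold lower on the less shifted probe set. The 4 bright probe sets of the transcription factor gene Klf6 were all higher, with log2 differences of 0.16 to 0.30. Outside these 1890 genes, the 3 bright probe sets of the stress sensor gene Atf6, with regular-medium signals of 634, 609 and 266, were higher by 0.21 to 0.37.

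Bright genes read by 1 probe set could differ more. Of 5228 genes above 703.6 in both media, 97.0% were within 1.2-fold, 1 was at least 1.5-fold higher and 5 at least 1.5-fold lower. Zcchc14, a zinc finger gene, had 1959, 1123 and 1318, 1.74-fold lower in conditioned medium, but its other 3 bright probe sets had log2 differences of -0.17 to 0.02. The tubulin cofactor gene Tbcd was 1.60-fold lower at 2058 and 1289, with 0.27 on its other probe set. Dnajc17, Exosc1 and Prmt2 were 1.52-fold, 1.52-fold and 1.51-fold lower, and in none of them was another bright probe set past 1.2-fold in that direction. These 5 genes were named after their values were seen, and the higher gene was Tcl1b3.

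Gene lists were read against all measured genes, of which 6.32% were at least 1.2-fold higher in conditioned medium and 7.18% at least 1.2-fold lower. List counts take each gene on the probe set used. Of 43 lists, 37 had at least 10 measured members, and their median log2 differences ran from -0.08 to 0.07, around the median of 0.01 for all measured genes. The lists held 740 different measured genes, of which 90.3% were within 1.2-fold and 7 were at least 2-fold apart. Those 7 are among the genes above, namely Fitm1, Pklr, Acta2, Rpl39, Igf2, Ntrk2 and Cspg4.

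Receptors for factors that MSCs can secrete were followed first. Of 28 measured receptors, 2 were at least 1.2-fold higher and 2 at least 1.2-fold lower on the probe set used, with a median of 0.06. Besides Ntrk2 and Pdgfra, given above, these were Egfr, the receptor for EGF, at 218, 130.0 and 243 in regular medium, conditioned medium and co-culture, and Fgfr2, a receptor for fibroblast growth factors, at 246, 298 and 342. Egfr was 1.68-fold lower and Fgfr2 1.21-fold higher in conditioned medium. The Wnt receptor gene Fzd2 had a difference of 0.22, with -0.16 and -0.12 on its other bright probe sets.

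Downstream response genes of those receptors differed little. Among 17 measured genes of the STAT3 and IL-6 family response, none was 1.2-fold higher and 3 were lower, with a median of -0.02. Of all measured genes 7.18% were lower by that rule. They were Bcl3, a nuclear IkB protein, at 171 and 111, the cytokine feedback inhibitor Cish at 234 and 173, and its relative Socs3 at 536 and 429. The other bright probe sets of Socs3 had log2 differences of 0.04 and 0.40, so the probe sets of this gene differed in direction. Bcl3 and Cish were in the dimmest group of measured genes, of which 64.3% were within 1.2-fold. The count of 3 is therefore read as no result about this response. In the NF-kB list 18 of 20 were within 1.2-fold, and the inhibitor gene Nfkbia, a target of the pathway, had 8238, 8863 and 7520.1, with log2 differences of -0.06 to 0.32 on its other bright probe sets. Of 24 growth factor and ERK feedback genes, 2 were higher, Jund at 4467, 5779 and 7195 and Klf6 at 2007, 2413 and 5242, and none was lower. Both encode transcription factors of the immediate response to growth signals.

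TGF-beta, Wnt, Notch and YAP lists had medians of 0.07, 0.05, 0.02 and 0.05. Of 17 TGF-beta response genes, 2 were higher, the ligand gene Tgfb2 at 143, 238 and 296 and the inhibitor of differentiation Id1 at 794, 1029.5 and 387. Tgfb2 was 1.66-fold and Id1 1.30-fold higher in conditioned medium, and Id1 was lowest in co-culture. Id2 had -0.22 on the probe set used and 0.75 on another. In the Notch list Notch1 was higher and Hes1, a repressor that Notch signalling induces, was lower at 699, 422 and 593, 1.66-fold. The Notch ligand gene Jag2 had 0.35 and -0.45 on its probe sets. Of 21 YAP and TEAD genes 19 were within 1.2-fold, with Tgfb2 and F3, the tissue factor that starts coagulation, at 276 and 351, above that. Lgr4, a receptor that strengthens Wnt signalling, was 1.28-fold higher at 389.8 and 500.1. On the probe set used it was the only one of 10 Wnt response genes past 1.2-fold. Apcdd1 of that list had -0.32 to 0.20 on its other bright probe sets.

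Chemokines had the largest share of members past 1.2-fold among the 37 lists, as 3 of 14 were higher and 3 lower. The members past 1.2-fold were dim, and in the dimmest group of measured genes 64.3% were within 1.2-fold, so this share is read as no result about chemokines. Ccl5, which attracts T cells, had signals of 227, 312 and 369.9 in the order regular medium, conditioned medium, co-culture. Cxcl5, which attracts neutrophils, had 485, 324 and 274. Il18, a cytokine of the IL-1 family, had 161, 212 and 237. Ccl5 and Il18 were 1.37-fold and 1.32-fold higher in conditioned medium, and Cxcl5 had a log2 difference of -0.58. Cxcl10, an interferon-induced chemokine, and Ccl2, which attracts monocytes, were 1.31-fold and 1.24-fold lower, at 198 and 181.

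Matrix proteases had the second lowest of the 37 list medians. Of 17 measured proteases and inhibitors 13 had a lower signal in conditioned medium, with a median of -0.06, against 0.01 over all measured genes. At least 1.2-fold lower were 2 of the 17, against 7.18% of all measured genes. These 2 were the metalloproteinase genes Mmp10 at 177, 127 and 52.3 and Mmp11 at 178, 131 and 168. Both were in the dimmest group, of which 64.3% were within 1.2-fold, so these 2 are read as no result about proteases. The share of all measured genes with a lower signal was not counted, so the 13 of 17 is read as no result either. The gelatinase gene Mmp9 had 701 and 614, with differences of -0.19 and -0.27 on its bright probe sets, and the urokinase receptor gene Plaur had 2197 and 1904. In the matrix and adhesion list the median was 0.07, with the matrix protein gene Tnc 1.46-fold lower at 443 and 303 and Postn 1.24-fold higher. Epithelial genes were all within 1.2-fold on the probe set used (28 of 28, with Epcam as above), as were the 12 stem and progenitor genes, with Cd44 at 8716, 9493 and 6879.9. Among 16 mesenchymal transition genes Acta2 and Tnc were past 1.2-fold in opposite directions and the other 14 were within it.

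Interferon response genes had the lowest of the 37 medians, -0.08, and 4 of 21 were at least 1.2-fold lower and none higher. Rsad2, the antiviral protein viperin, gave 222 with regular medium, 124 with conditioned medium and 1059 after co-culture. Oas1a, a sensor of double-stranded RNA, had 389.9, 278 and 4009, and Irgm1, an immunity-related GTPase, had 591, 427 and 2581. Gbp3, a guanylate-binding protein gene, had 239, 173 and 856. These 4 were picked as lower in conditioned than in regular medium, so that order follows from the choice. Co-culture was highest in all 4, and the differences between the media were -0.85, -0.49, -0.47 and -0.47 on the log2 scale. Rsad2, Oas1a and Gbp3 were in the dimmest group of measured genes, of which 64.3% were within 1.2-fold. The count of 4 is therefore read as no result about interferon genes. None of the 4 had another bright probe set. Over the whole list 15 members had a lower and 6 a higher signal, such as Gbp2 at 181 and 216. The share of all measured genes with a lower signal was not counted, so this split is read as no result about interferon genes. Antigen presentation genes had a median of 0.04, with Cd74, the class II invariant chain, 1.21-fold higher.

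All 31 measured G2/M and mitosis genes and all 33 G1/S and DNA replication genes were within 1.2-fold, with medians of 0.02 and 0.03 against -0.92 and -0.59 for co-culture. The phosphatase gene Cdc25c, an activator of entry into mitosis, had the largest difference of the mitosis list at 0.26, with 0.21 on its other probe set. Cdc20, the activator of the anaphase-promoting complex, had 10565, 11502 and 7041, with -0.25 to 0.05 on its other bright probe sets. Ribosome biogenesis genes and proteasome genes were within 1.2-fold in 28 of 30 and 28 of 28 members, with Max, the partner of MYC, 1.38-fold higher at 227 and 312.

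Metabolic and nutrient stress genes were near their regular-medium signals. Of 30 genes of the amino acid and unfolded protein stress responses, 29 were within 1.2-fold on the probe set used. Only the chaperone gene Pdia4 was beyond, 1.23-fold higher at 431 and 529.7. Other bright probe sets of Ern1 had log2 differences of -0.60 and -0.31, against 0.19 on the one used. Sesn2 had 0.14 on the probe set used and 0.42 on another. Slc7a1, a transporter of cationic amino acids, had 2899, 3447 and 5053. The glucose sensing and glycolysis list had Pfkfb4 1.26-fold lower besides Pklr, and its median was 0.00. Among 23 hypoxia genes the lipid droplet gene Hilpda was 1.34-fold higher at 413 and 554, P4ha2 1.22-fold higher and the oxygen sensor Egln1 1.21-fold lower, with -0.02 on its other bright probe set. Adm had 0.31 on 1 probe set and -0.30 on another. Cholesterol genes had 18 of 20 within 1.2-fold and a median of 0.04, where co-culture had -1.54. Mvd, which makes isopentenyl diphosphate, had 0.30 and -0.07 on its probe sets. Idi1, the isopentenyl diphosphate isomerase, had 6415, 5755 and 779, and Srebf2, the regulator of the pathway, had 0.26 and -0.43 on its probe sets.

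Respiration, stress and survival genes held a few larger values. In the oxidative phosphorylation list 30 of 32 were within 1.2-fold, and Ndufv1, a complex I subunit, was 1.24-fold lower at 4823 and 3895 with its other bright probe sets at 0.03 and 0.08. The metallothionein gene Mt2 was 1.27-fold lower, at 5714, 4484 and 8054. It was the only one of 26 oxidative stress genes past 1.2-fold on the probe set used. Srxn1 of that list had 0.23 on the probe set used and -0.51 to 0.04 on its other bright probe sets. Of 20 p53 targets, 4 were at least 1.2-fold higher and 1 lower, against 6.32% and 7.18% of all measured genes. The antiproliferative gene Btg2 was 1.41-fold lower at 255 and 181, and the kinase gene Plk3 1.38-fold higher at 206 and 284. Gadd45a, a growth arrest gene, had 535, 704 and 4499, and the cyclin G gene Ccng1 had 1668, 2140.2 and 1845. Both were higher in conditioned medium, 1.32-fold and 1.28-fold, although the other bright probe sets of Ccng1 had only 0.10 and 0.14. Ddb2, a DNA damage-binding protein gene, had 0.35 and -0.19 on its bright probe sets. Btg2 and Plk3 were in the dimmest group of measured genes, of which 64.3% were within 1.2-fold. With these limits the count is read as no result about p53 targets. Casp9 and Bcl2, which act in apoptosis, were higher on the probe set used, by 0.39 and 0.38, and had probe sets that differed in the opposite direction, down to -0.39 and -0.27.

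Lipid, hormone receptor, lysosome and cytoskeleton genes complete the survey. In the fatty acid and lipid storage list 23 of 25 were within 1.2-fold, and besides Fitm1 the exception was Cpt1a, which carries fatty acids into mitochondria, at 275, 214 and 581. Fitm2, the close relative of Fitm1, had 460.0, 388 and 560.1, lower in conditioned than in regular medium. Of 4 measured mammary luminal genes, the oestrogen receptor gene Esr1 was 1.25-fold higher at 264 and 329 and its pioneer factor Foxa1 1.45-fold lower at 174 and 119.9. Among 16 growth factor genes only Igf2 was past 1.2-fold, with Inhba, an activin subunit, at 1686 and 1468.

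Ribosomal proteins had 25 of 27 within 1.2-fold, with Rps27 1.37-fold higher at 483 and 664 beside Rpl39. Lysosome and autophagy genes had 31 of 32 within it, and Atg12, a conjugation protein of autophagosome formation, had 0.30 and -0.03 on its probe sets. Cytoskeleton genes had 27 of 29, where Tagln2 had 0.35 and -0.05. All 17 reference genes were within 1.2-fold, with a median of 0.04, and Actb had 29482, 32437 and 24609.

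**Figure D5:**
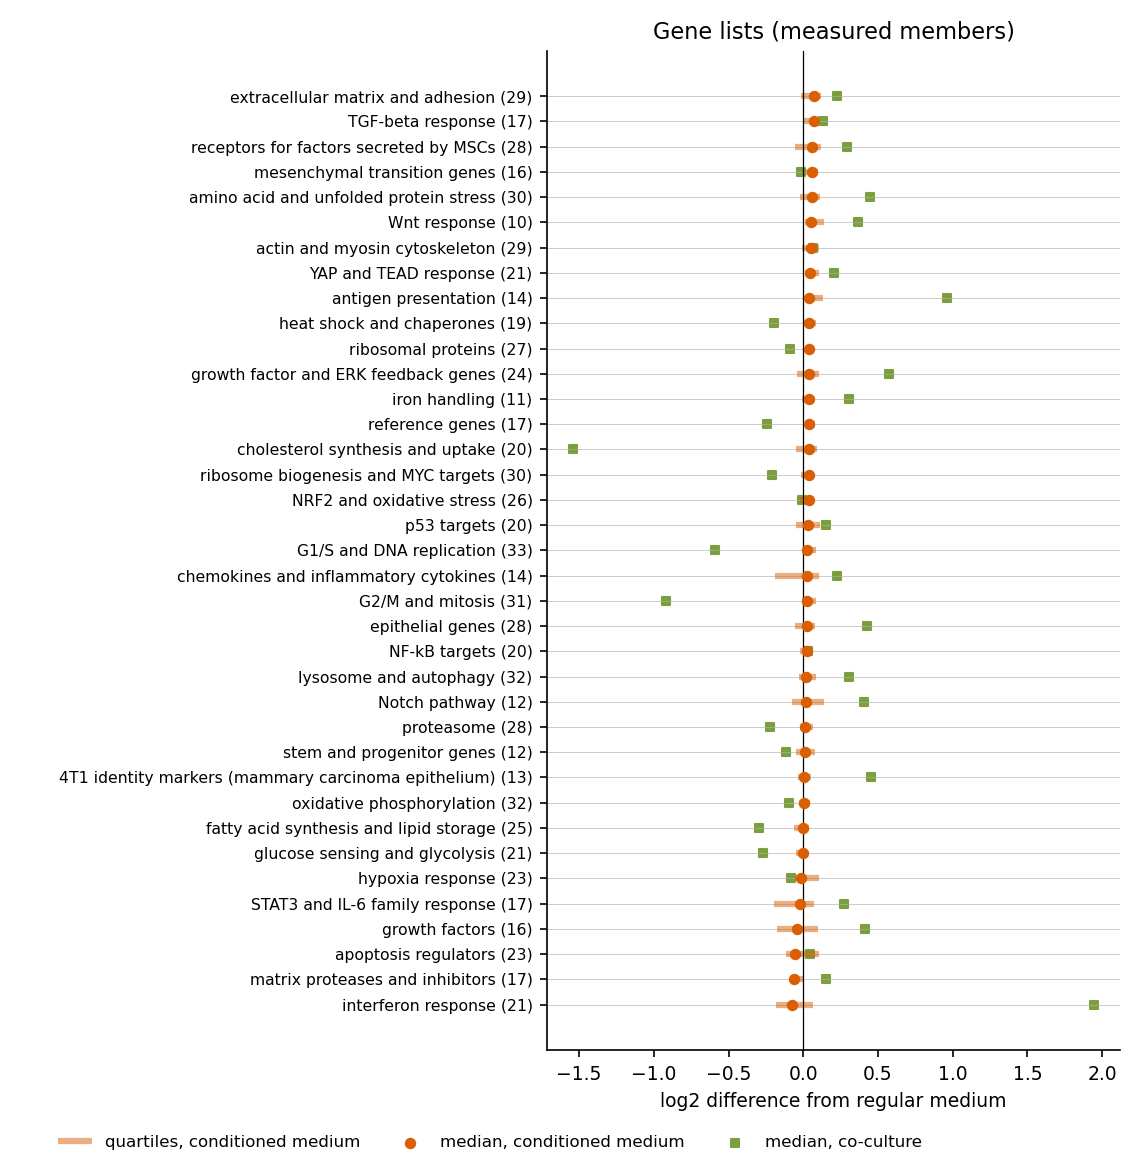
Median log2 difference from regular medium (horizontal) of the 37 gene lists with at least 10 measured members, for conditioned medium (circles, with bars over the quartiles) and co-culture (squares), with the number of measured members after each name. Conditioned-medium medians all lie between -0.08 and 0.07, while co-culture medians run from -1.54 for cholesterol genes to 1.94 for interferon response genes. The regular-medium array is shared by both.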

How the data were processed

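The authors deposited linear intensity values, MAS5 signals per the submitters' processing notes, for 45037 probe sets on 3 arrays. The MAS5 version and scaling target are not stated in the labels. The 2%-trimmed means were 497.7 to 498.0, so no further scaling was applied. Of the probe sets, the platform annotation gave 34945 a single symbol, 932 more than 1 and 9160 no symbol, and symbols were updated by gene ID against RefSeq for GRCm38.p6, giving 18193 genes.

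Each gene was read from its probe set of highest mean over the 3 arrays. Signals under 42.4 were raised to that floor before log2. A 2-fold rule with a brighter signal of at least 149.3 defined called genes, and 1.2-fold on every one of at least 2 bright probe sets defined small shifts. With 1 array per condition no test was made, and precision is limited by that number. The calling was tested on simulated data with changes planted only in genes well above 149.3. That test does not cover the dim genes that make up most of the calls.

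Named genes were the 10 largest ratios above the floor and 5 bounded ratios per direction, the 12 largest small shifts per direction, up to 4 members of each list, the 10 highest signals, the cell type markers and those said in the text to be picked afterwards. Fzd2, Ccl2, Gbp2, Ddb2 and Sesn2 lie outside this rule and were picked with their values in view. Members, lists and rules were chosen with earlier results of these data known. Alternatives changed scaling, floor, filters, probe set choice and fold. Scripts ran in Python (3.11.15) with pandas (2.3.3), NumPy (2.4.6) and SciPy (1.17.1).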

Additional observations from a re-analysis of the deposited data

How the results depend on the processing

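The counts rest on dim probe sets. Against 10 higher and 28 lower genes, the floor at the pooled 60th percentile gave 2 and 1, the brighter signal at the 80th percentile 1 and 1, no filter on signal 59 and 200, the 1.5-fold rule 69 and 134 and the 3-fold rule 5 and 12. The mean over probe sets gave 12 lower genes. Quantile normalization gave 15 higher and 26 lower, so 36.6% of calls were higher in place of 26.3%. Against 9 upward and 25 downward shifts, a mean signal at the 80th percentile gave 0 and 0, at the 50th percentile 33 and 60, 1.1-fold on each probe set 109 and 102, 1.5-fold 0 and 1, and at least 3 probe sets 0 and 0, while leaving out suffixed probe sets gave 16 downward. The share of measured genes within 1.2-fold, 86.5%, became 88.1% with the higher floor, 95.6% with the 80th percentile filter, 81.2% with no filter, 85.6% without suffixed probe sets and 87.9% with the mean over probe sets. Choosing the probe set on the compared arrays alone was added after seeing the data and gave 10 higher and 28 lower genes. For 61 named genes recomputed under the alternatives, 424 values held 83 that moved by more than the scatter between probe sets and 1 reversal, Tube1, at -0.36 and then 0.39 without suffixed probe sets, where a different probe set is read, and the 37 list medians stayed between -0.08 and 0.08. No paired analysis was possible because each condition had 1 array.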

Other observations

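Probe sets without a single gene symbol were counted apart. Of 2172 such probe sets that reached 149.3 in either medium, 5 were at least 2-fold higher in conditioned medium and 16 at least 2-fold lower, together 0.967%. Among 16494 probe sets with 1 symbol the counts were 31 and 64, together 0.576%. The share of probe sets at or below the floor was 38.0% in regular medium and 41.4% in conditioned medium, and the median signals over all probe sets were 79.8 and 71.6.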
